A study of Mus musculus with 8 samples.

Results

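Epithelial cells sorted from the hindbrain choroid plexus were compared with whole hindbrain choroid plexus by RNA sequencing in mouse embryos at stage E18.5. The hindbrain plexus is the one of the fourth ventricle. The comparison holds 4 of the 8 libraries of the series, 2 of whole tissue and 2 of sorted cells, and covers 15698 of the 23284 genes in the count table, those that passed a filter on low counts. Whole tissue came from embryos of the strain CD1, and sorted cells from embryos labelled ICR (CD1) that carried a Ttr::RFP reporter, which names a red fluorescent protein under control of the transthyretin gene. RFP-positive cells were purified by fluorescence-activated cell sorting and whole tissue was not. The labels name no treatment and no other allele. The other 4 libraries are the same preparations of the telencephalic choroid plexus, which per the series' design came from the same brains as the hindbrain tissue of that preparation. Whole and sorted libraries were from different brains, so preparation, strain wording, reporter and brain cannot be told apart. The sources used here do not say whether embryos were pooled or how the tissue was dissociated.

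The choroid plexus is a folded sheet of secretory, multiciliated epithelium over a core of fibroblasts, leaky blood vessels, pericytes and resident macrophages. Its epithelium makes most of the cerebrospinal fluid, and moves ions, water, nutrients and hormone carriers between blood and ventricle. Several kinds of difference can therefore enter a comparison of sorted cells with whole tissue: transcripts of the epithelium itself, transcripts of the other cells, and transcripts that cells make while they are taken apart. Immediate early genes and NF-kB target genes, which are transcribed within minutes of a stimulus from factors already in the cell, are widely known to rise in dissociated tissue. Genes are grouped below by these roles.

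Total counts were 21932900 and 18947870 in whole replicates 1 and 2, and 26710018 and 29231556 in sorted replicates 1 and 2. Values for single libraries are given in that order throughout, as CPM, a gene's reads as a share of the library size after scaling by TMM, which sets the bulk of genes equal between libraries. In these libraries 1 read was worth 0.0364 to 0.0472 CPM. The 2 sorted libraries were less alike than the 2 whole libraries, with a chi-square per degree of freedom of 61.1 against 12.3 over genes with at least 10 counts in the pair. Sorted replicate 2 stood apart in composition: the ribosomal RNA precursor Rn45s took 11.3% of its counts, against 6.49% in sorted replicate 1 and 4.07% and 4.15% in whole tissue, and its 10 most abundant genes took 34.6% against 22.7% to 26.5% in the other 3. The reads were pre-amplified without molecular identifiers, so counting intervals cover counting error only.

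Sorted cells differed from whole tissue in 3472 genes, which had an adjusted p below 0.05 in edgeR's quasi-likelihood test and are said to be called. Of all genes tested, 10.2% were called higher (1607) and 11.9% lower (1865), and the median log2 fold change, sorted minus whole, was 0.01. Most gains were small: 1122 of the higher genes changed less than 2-fold, 313 between 2- and 4-fold, 126 between 4- and 16-fold and 46 by 16-fold or more. Losses reached further, with 495 genes at least 4-fold lower, 180 of them by 16-fold or more, against 172 genes at least 4-fold higher. No gene of the choroid epithelial identity list reached a log2 fold change above 0.62, while 1014 genes were called higher above that value. In the plot of fold change against level most called epithelial genes lie close to 0, with exceptions such as Cdh1 (-2.53) and Slco1a5 (1.87). Early response genes lie towards the upper edge and markers of other cells towards the lower, both among many genes in no list. The split depended on the scale: with library totals in place of TMM 20.1% of 3733 calls were higher, against 46.3%, and the median of all genes moved to -0.19.

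**Figure D1:**
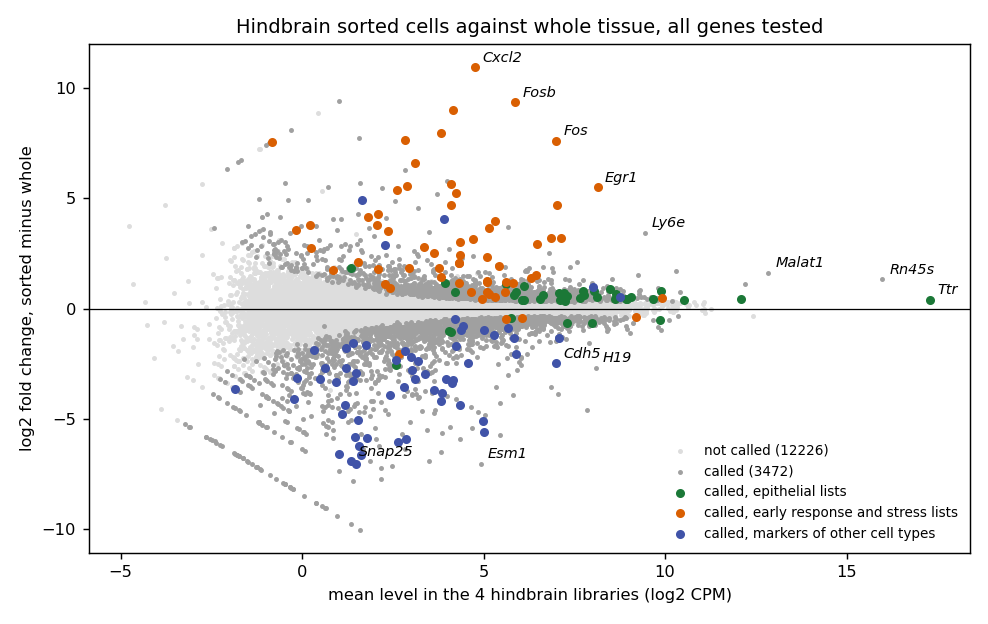
Log2 fold change, sorted minus whole hindbrain tissue (vertical), against the mean level in the 4 hindbrain libraries (horizontal, log2 CPM), 1 point per tested gene, with called genes in dark grey and called genes of the epithelial, early response or stress, and other-cell lists in green, orange and blue. Cxcl2, Fosb, Fos and Egr1 lie at the top, endothelial and neuronal markers at the bottom, and Ttr at the far right just above 0.

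The epithelial identity of the sorted cells was visible but was a modest gain over whole tissue. Ttr, the carrier of thyroid hormone and retinol that marks the sorted cells, stood at 139300 and 140800 CPM in whole tissue and 158930 and 210600 in sorted cells, a log2 fold change of 0.40 ± 0.13 (adjusted p = 0.0389). The groups did not overlap, but sorted replicate 1 lay much closer to whole tissue than sorted replicate 2 did. Without sorted replicate 2 the change was 0.18 (adjusted p = 0.291), and the call was also lost without whole replicate 1 (0.11) or whole replicate 2 (0.115). It was lost too with the 4 hindbrain libraries fitted alone (adjusted p = 0.0782), with the replicate number as a block (0.101) and with library totals, where the change was 0.19 (0.272). Ttr already took 15.7% to 15.8% of all counts in whole tissue. In bulk libraries fewer cells of a type and less RNA per cell cannot be told apart.

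Of 23 choroid epithelial identity genes 10 were called higher, 1 lower and 12 not called, with a median of 0.38. Htr2c, the serotonin receptor for which the plexus is known, rose from 705 and 677 to 934 and 934 CPM (0.43 ± 0.10, adjusted p = 0.0109). Tmem72, a membrane protein of kidney and choroid epithelium, rose from 445 and 440.1 to 629.6 and 637 CPM (0.52 ± 0.11, adjusted p = 0.0066). For both genes the 2 sorted libraries were nearly equal and lay above both whole libraries. Enpp2, the secreted enzyme autotaxin that makes lysophosphatidic acid, rose by 0.43 ± 0.12, and Kl, which encodes the co-receptor Klotho, by 0.38 ± 0.12. The keratin Krt18 and coagulation factor F5 had the largest gains of the list, 0.62 ± 0.14 and 0.61 ± 0.13. Otx2, the homeobox factor that specifies the plexus, was at 519 and 518 and then 628 and 541 CPM and was not called (0.17 ± 0.11, adjusted p = 0.297). The folate receptor Folr1, at 571 and 601 and then 649 and 715 CPM, and Sostdc1, a secreted BMP and Wnt antagonist, at 1449.7 and 1535 and then 1562 and 1799, were not called either. The called loss was Ecrg4, listed as 1500015O10Rik, a secreted peptide precursor, at 1074 and 1132 and then 612 and 912 CPM (-0.53 ± 0.15). Calls ended, at the adjusted p in parentheses, without the hindbrain library named there for Krt18 (whole 2, 0.0915), F5 (whole 1, 0.0693), Htr2c (whole 2, 0.0808), Enpp2 (sorted 1, 0.0692, or whole 1, 0.16), Kl (sorted 1, 0.0678, or sorted 2, 0.0591, or whole 1, 0.0957, or whole 2, 0.185) and 1500015O10Rik (sorted 1, 0.122, or whole 1, 0.0665, or whole 2, 0.115). Over the list 3 to 9 members remained called higher when 1 of the 8 libraries was left out, with medians of 0.29 to 0.38. With library totals in place of TMM no member was called higher and 4 were called lower, with a median of 0.18 against -0.19 over all genes. Summed over the list, sorted replicates 1 and 2 held 114% and 148% of the whole-tissue mean. Without Ttr, which made up 91.9% of that sum in whole tissue, the other 22 genes gave 118% and 122%.

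**Figure D2:**
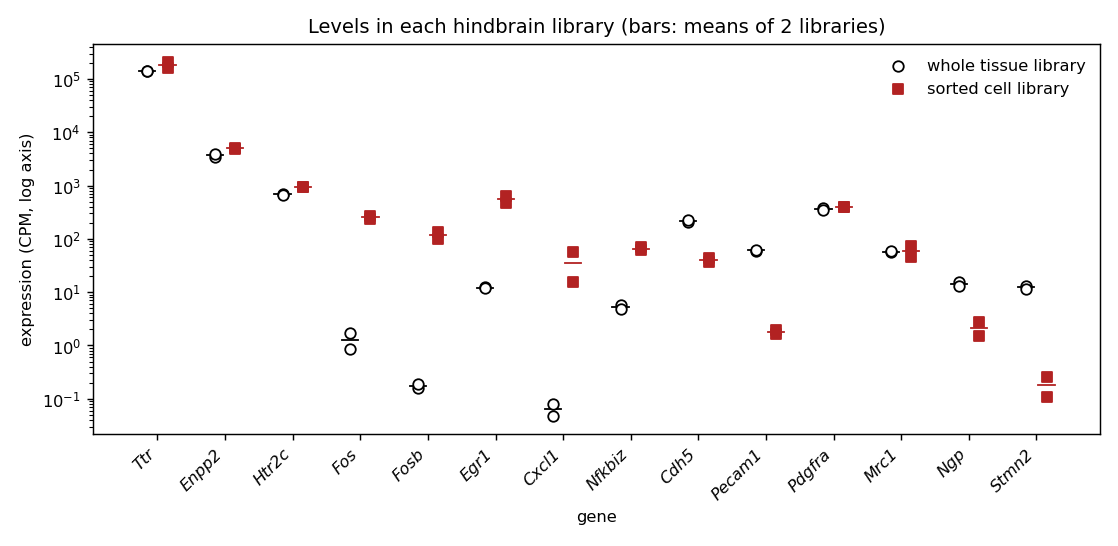
Levels of 14 genes (CPM, log axis) in the 2 whole libraries (open circles) and 2 sorted libraries (red squares) of hindbrain tissue, with a bar at each mean. Ttr, Enpp2 and Htr2c shift little, Fos, Fosb, Egr1, Cxcl1 and Nfkbiz lie far higher in both sorted libraries, and Pecam1, Ngp and Stmn2 far lower, while Pdgfra and Mrc1 hold their level.

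The working parts of the epithelium moved gene by gene. Of 17 ion and water transport genes 5 were called higher, 0 lower and 12 not called (median 0.22). Fxyd1, a regulatory subunit of the sodium pump, rose from 258 and 236 to 369 and 554 CPM (0.90 ± 0.17, adjusted p = 0.00322), and Kcnj13, an inward rectifier potassium channel, from 268 and 356 to 541 and 438 CPM (0.65 ± 0.15, adjusted p = 0.00909). The carbonic anhydrases Car2 (0.43 ± 0.11) and Car12 (0.40 ± 0.13) and the potassium chloride cotransporter Slc12a4 (0.40 ± 0.12) were the other called genes. The water channel Aqp1 at -0.07 and the pump subunit Atp1b1 at -0.13 were near whole tissue and not called, nor were the bicarbonate transporters Slc4a5 and Slc4a10 at -0.08 and 0.22. With library totals 1 of the 17 genes was called higher and the median was 0.02. Leaving out the library named ended the calls of Kcnj13 (whole 1, 0.0851), Car2 (sorted 1, 0.0512, or whole 1, 0.108, or whole 2, 0.0505), Car12 (sorted 1, 0.107, or whole 1, 0.2, or whole 2, 0.073) and Slc12a4 (sorted 2, 0.0565, or whole 1, 0.15, or whole 2, 0.088), with the adjusted p then reached.

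Nutrient and organic ion transporters gave 3 higher, 1 lower and 15 uncalled genes of 19 (median 0.07, and with library totals 3 higher and 3 lower with a median of -0.14). The share called, 21.1%, was near the 22.1% of all genes tested. Lrp2, the endocytic receptor megalin, rose from 30.8 and 30.5 to 74.4 and 59.2 CPM (1.12 ± 0.14, adjusted p = 0.000184), with both sorted libraries above both whole ones. Slc2a12, a glucose transporter, rose by 0.58 ± 0.11, and the organic anion transporter Slco1a5, a low gene at 0.967 and 1.23 and then 3.24 and 4.77 CPM, by 1.87 ± 0.50. Abcg2, an efflux pump of brain endothelium and epithelia, fell from 21 and 25.1 to 12.3 and 10 CPM (-1.05 ± 0.18, adjusted p = 0.00168). The call of Slco1a5 (sorted 2, 0.0584, or whole 1, 0.113, or whole 2, 0.0732) ended without the library named, with the adjusted p given.

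Among 17 secreted factors 3 were called higher, 1 lower and 13 not called (median -0.13). This made 23.5% called, near the 22.1% of all genes tested. With library totals 3 were higher and 6 lower (median -0.32), and without sorted replicate 1, 5 were higher and 4 lower. Clu, the extracellular chaperone clusterin, rose from 686 and 689.9 to 1100.1 and 1312 CPM (0.81 ± 0.11, adjusted p = 0.000392). Sema3b, a guidance cue, and Vegfa, the vascular growth factor, rose by 0.72 ± 0.12 and 0.62 ± 0.11. Bmp7 fell from 179 and 209 to 127 and 118 CPM (-0.66 ± 0.13, adjusted p = 0.00382). Penk, the enkephalin precursor, was at 649 and 715 CPM in whole tissue and 557 and 306 in sorted cells, and Igf2 at 6980 and 5158 and then 4451 and 5347, and neither was called. For Penk both sorted libraries lay below both whole ones and differed from each other about as much as the group means did.

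Junction and polarity genes split, with 3 higher, 4 lower and 13 not called of 20 (median 0.13), and 1 higher and 5 lower with library totals (median -0.07), and without whole replicate 2, 0 higher and 2 lower. Tjp3, a scaffold of tight junctions, rose from 15.4 and 12.1 to 24 and 23.1 CPM (0.78 ± 0.16), and Ocln, the transmembrane protein occludin, by 0.37 ± 0.11. The scaffold Tjp1 fell from 304 and 322 to 217 and 178 CPM (-0.66 ± 0.12, adjusted p = 0.00226), and Cdh1, the epithelial cadherin, from 11.8 and 8.73 to 2.22 and 1.32 CPM (-2.53 ± 0.42, adjusted p = 0.00122). Cldn11, a claudin of myelin and other barriers, fell to 13.7 and 8.44 CPM (-0.99 ± 0.24). Some calls ended without the library named, at the log2 change given. These were Tjp3 (whole 2, 0.61), Ocln (sorted 1, 0.37, or sorted 2, 0.37, or whole 1, 0.45, or whole 2, 0.29) and Cldn11 (sorted 2, -0.68, or whole 2, -0.92). The claudins of the plexus barrier were near whole tissue, with Cldn1 at 777 and 773 and then 872 and 856 CPM and Cldn2 at 438 and 513 and then 504 and 428 CPM, neither called.

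Motile cilia genes had 8 higher, 0 lower and 22 not called of 30 (median 0.14), and their summed level was 129% and 135% of whole tissue in the 2 sorted libraries. The gain lay in a subset. Zmynd10, a factor for assembly of dynein arms, rose from 42.6 and 47.2 to 83.5 and 101 CPM (1.04 ± 0.13, adjusted p = 0.000157). The axonemal dynein heavy chains Dnahc9 and Dnahc11 rose from 191 and 195 to 336 and 327 and from 164 and 153 to 259.7 and 285 CPM, both by 0.78. Foxj1 and Rfx3, transcription factors of the motile cilia programme, rose by 0.54 ± 0.14 and 0.43 ± 0.10. Other axonemal genes did not follow: Dnahc5 was at -0.32, Tekt1 at -0.03 and Rsph1 at 0.05, none of them called. With library totals the counts were 6 higher and 1 lower, with a median of -0.06. Without the library named, Foxj1 (sorted 2, 0.0735, or whole 2, 0.145) and Rfx3 (whole 2, 0.0945) were not called, at the adjusted p given.

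Among hindbrain positional regulators 15.4% were called, against 22.1% of all genes tested. Of 13 tested 0 were called higher and 2 lower, with a median of 0.13 that changed sign to -0.23 with the 4 hindbrain libraries fitted alone, to -0.31, -0.23 and -0.38 without sorted replicate 1, sorted replicate 2 and whole replicate 2, and to -0.08 with library totals. With whole replicate 1 or whole replicate 2 left out, edgeR called 0. Hoxa2, which patterns the rostral hindbrain, was at 7.5 and 6.89 and then 7.02 and 9.76 CPM (0.22, adjusted p = 0.69), Meis1, a Hox cofactor, at 36.3 and 22.4 and then 40.9 and 37.3, and En2, a midbrain and hindbrain boundary factor, at 3.55 and 3.87 and then 5.45 and 6.31. The called losses were Meis2, from 27.9 and 28.9 to 21.3 and 16.3 CPM (-0.59 ± 0.17, adjusted p = 0.0265), and the low gene Irx3, with 43 and 43 counts against 16 and 4 (-2.35 ± 0.60, adjusted p = 0.0154). Neither call held throughout, while both changes kept their direction. Without the library named, at the log2 change given, Meis2 (sorted 2, -0.41, or whole 1, -0.62, or whole 2, -0.57) and Irx3 (whole 1, -2.46, or whole 2, -2.23) were not called. Hoxa4 and Hoxd3 did not pass the count filter.

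The early response and NF-kB genes had the largest gains of the lists in the sorted cells, and most were low in whole tissue. The promoters of 4 of its genes, from RefSeq with the build GRCm38.p6, are printed here as the 250 bases before the annotated start, 5' to 3' on the gene's strand, because they hold letters of elements for which these genes are known. They were chosen for these letters from 6 windows of strongly called genes. That of Fosb held none of the letters searched, and that of Cxcl10 held an AP-1 site but not the exact letters of either element below. NF-kB sites with other letters were not searched, so a window without these letters may still hold one. Capitals in Fos and Atf3, and the first capitals in Cxcl1, mark the core of a cyclic AMP response element, TGACGT or its reverse complement ACGTCA. Capitals in Cxcl2, and the second capitals in Cxcl1, mark an NF-kB site, the same 10 letters in both. The Fos window is chr12:85473640-85473889, plus strand. The Atf3 window is chr1:191183334-191183583, minus strand. The windows of Cxcl1 and Cxcl2 are chr5:90890995-90891244, plus strand, and chr5:90903649-90903898, plus strand.
Fos: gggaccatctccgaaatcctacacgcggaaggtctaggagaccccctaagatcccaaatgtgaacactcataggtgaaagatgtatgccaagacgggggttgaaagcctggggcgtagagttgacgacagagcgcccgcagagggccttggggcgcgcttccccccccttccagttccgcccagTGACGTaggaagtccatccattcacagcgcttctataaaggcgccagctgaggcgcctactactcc
Atf3: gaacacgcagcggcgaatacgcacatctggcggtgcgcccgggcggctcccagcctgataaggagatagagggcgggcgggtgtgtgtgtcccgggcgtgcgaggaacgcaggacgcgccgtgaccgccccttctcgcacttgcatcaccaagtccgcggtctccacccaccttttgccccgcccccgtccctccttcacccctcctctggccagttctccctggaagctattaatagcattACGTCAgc
Cxcl1: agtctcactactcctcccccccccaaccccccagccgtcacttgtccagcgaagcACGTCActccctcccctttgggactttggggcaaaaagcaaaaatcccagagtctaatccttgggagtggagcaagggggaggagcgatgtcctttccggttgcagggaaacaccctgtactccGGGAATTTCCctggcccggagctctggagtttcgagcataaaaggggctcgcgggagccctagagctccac
Cxcl2: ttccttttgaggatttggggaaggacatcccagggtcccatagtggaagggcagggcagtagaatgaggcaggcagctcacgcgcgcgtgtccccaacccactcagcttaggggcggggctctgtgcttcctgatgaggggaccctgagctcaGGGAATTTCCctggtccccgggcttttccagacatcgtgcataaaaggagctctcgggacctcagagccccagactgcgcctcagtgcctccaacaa

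The core began 66 bases before the start in Fos, 8 in Atf3 and 195 in Cxcl1, and the NF-kB site 97 bases before the start in Cxcl2 and 71 in Cxcl1. These windows were available for 12288 of the 15698 tested genes. The core, searched on both strands, was in 10.7% of all of them and in 10 of 26 called early genes with a window (38.5%). The full element TGACGTCA, which contains the core, was in 2.84% of all and 4 of the 26 (15.4%), and the CArG box bound by serum response factor in 1.42% of all and 3 of the 26 (11.5%). The NF-kB site with the letters seen in Cxcl1 and Cxcl2 was in 0.13% of all windows and in 3 of 13 called genes of the NF-kB list (23.1%). The AP-1 site TGANTCA was in 5.75% of all, 5 of the 13 (38.5%) and 1 of the 26 early genes. The letters searched were chosen after these promoters had been seen. Cxcl1 and Cxcl2 are themselves among the 3 genes with the NF-kB site, and Fos and Atf3 among the 10 with the core. The shares are therefore no test of enrichment, and a match describes the sequence and not binding.

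Of 9 tested AP-1 and ATF factors, the leucine zipper proteins that early signals switch on, 7 were called higher and 0 lower, with a median log2 fold change of 2.93 against 0.01 over all genes. Fos was at 1.69 and 0.849 CPM in whole tissue and 272 and 237 in sorted cells, a change of 7.61 ± 0.23 (adjusted p = 3e-09). Fosb had 4 and 4 counts in whole tissue and 2777 and 3616 in sorted cells (9.34 ± 0.31, adjusted p = 4.04e-09). Fosb was near the limit of detection in the whole libraries and Fos was low but above it. Both genes were far higher in both sorted libraries. Their partners Junb and Jun rose from 0.846 and 1.09 to 31.8 and 42.1 CPM (5.26 ± 0.25) and from 20.6 and 20.2 to 158 and 154 CPM (2.93 ± 0.13). Atf3, a stress-induced repressor, rose from 0.927 and 0.378 to 31.8 and 35.8 CPM (5.65 ± 0.34, adjusted p = 3.55e-07). Jund and Maff rose less, by 0.68 ± 0.17 and 1.18 ± 0.28, Fosl2 and Batf3 were not called, and Fosl1, with 5 counts in all, did not pass the filter. The calls of Jund (sorted 2, 0.0747, or whole 2, 0.105) and Maff (sorted 2, 0.0732, or whole 2, 0.0743) ended without the library named, at the adjusted p given. Summed, the list stood at 87.2 and 77.8 CPM in whole tissue and 672 and 729.8 in sorted cells.

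Other early response genes rose too, with 23 of 32 called higher, 0 lower and a median of 1.88. Egr1, a zinc finger factor, rose from 12.6 and 11.8 to 479.9 and 626 CPM (5.50 ± 0.19, adjusted p = 4.04e-09) and Cyr61, a secreted matrix protein, from 11.2 and 7.98 to 209 and 295 (4.71 ± 0.23). Negative regulators of the same response rose with them: Dusp1, a phosphatase of MAP kinases, from 26.6 and 28.7 to 289 and 217 CPM (3.19 ± 0.16), and Zfp36, which destabilises inflammatory messages, from 24.5 and 20.5 to 186 and 231 (3.21 ± 0.19). The orphan receptor Nr4a1 rose by 3.96 ± 0.24 and Ier2 by 2.79 ± 0.27. Not every early gene was called. Myc at 5.04 and 5.14 and then 3.6 and 9.83 CPM, Rhob at 0.02, Mcl1 at 0.18 and Klf10 at 0.20 were not. All 32 members had a positive log2 fold change, and in 27 both sorted libraries lay above both whole libraries. How many of all genes were separated in this way was not counted, so the 27 has no background to be read against. Without sorted replicate 2 there were 22 calls and a median of 1.55, and without sorted replicate 1 there were 29 and 2.12.

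Genes of NF-kB feedback and inflammation rose furthest, with 18 of 20 called higher, 0 lower and a median of 3.90 (3.87 with Il6 set at its bound). Cxcl2, a chemokine for neutrophils, had 1 and 0 counts in whole tissue and 807 and 2167 in sorted cells, 2498-fold higher (95% counting interval 448 to 98706). Its relative Cxcl1 had 2 and 1 counts against 432 and 1531, 549.6-fold higher (95% counting interval 188 to 2668), and the cytokine Tnf 2 and 1 against 88 and 691, 218-fold higher (95% counting interval 74.4 to 1060). Il6 had 0 counts in both whole libraries and 13 and 48 in sorted cells, at least 17.1-fold higher against a floor of 3 counts over the group. The feedback genes of the pathway, Nfkbiz, Tnfaip3 and Nfkbia, rose from 5.68 and 4.81 to 69 and 62 CPM (3.64 ± 0.19), from 5.8 and 4.77 to 35.5 and 58.9 (3.15 ± 0.36) and from 7.34 and 8.31 to 27.9 and 36.9 (2.05 ± 0.18). Birc3, at -0.10, and Icam1, at 4.64 and 5.85 and then 4.51 and 19.3 CPM, were not called.

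The inflammatory genes differed most between the 2 sorted libraries. Sorted replicate 2 was above sorted replicate 1 in 19 of the 20 genes, and the summed level was 562% of the whole-tissue mean in sorted replicate 1 and 1321% in sorted replicate 2. Sorted replicate 2 was also the higher in 26 of 32 other early genes and 22 of 30 motile cilia genes, but in 2 of 16 mesenchymal genes. The share over all genes was not counted. Ccl4 was at 2.58 and 31.7 CPM in the 2 sorted libraries, Cxcl10 at 4.55 and 51.9, Tnf at 3.2 and 25.3 and Ccl2 at 2.69 and 21.1. For the feedback genes Nfkbiz, at 69 and 62 CPM, and Nfkbia, at 27.9 and 36.9, the 2 libraries were closer. Without sorted replicate 2 the list had 12 higher calls with a median of 2.95, and without whole replicate 1 or 2 it had 11 or 10. Among the genes named, the calls that ended without the library given, with the adjusted p, were Ccl2 (sorted 2, 0.0514, or whole 1, 0.0549, or whole 2, 0.0566), Ccl4 (whole 2, 0.0583), Cxcl10 (whole 1, 0.0522) and Il6 (sorted 2, 0.0534, or whole 1, 0.0788, or whole 2, 0.0764). Macrophages are a known source of several of these chemokines. The summed level of 19 macrophage markers in sorted replicates 1 and 2 was 102% and 92.3% of whole tissue, with Mrc1 at 72.7 and 45.2 CPM and Csf1r at 47.4 and 42.3, and the macrophage receptor Cd14, induced in activated cells, was at 1.33 and 0.944 CPM in whole tissue and 4.04 and 13.1 in sorted cells. The part of these cells in the inflammatory genes was not tested.

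Heat shock genes and p53 targets were called about as often as all genes, and endoplasmic reticulum stress genes more often. The shares called were 23.5%, 25% and 41.2% in that order, against 22.1% of all genes tested. Of 17 cytosolic heat shock genes 2 were called higher and 2 lower (median 0.13, and with library totals 2 higher and 5 lower): the inducible Hsp70 genes Hspa1b, from 0.685 and 0.944 to 6.11 and 12.9 CPM (3.54 ± 0.45, adjusted p = 0.000182), and Hspa1a, from 2.46 and 4.25 to 7.64 and 16.5 (1.85 ± 0.46, adjusted p = 0.0136), and the chaperones Dnaja1 (-0.38 ± 0.12) and Cryab (-0.44 ± 0.11), which fell. Hspa1a and Hspa1b are near-identical copies, so the share of each is uncertain. The constitutive chaperone Hspa8 was at 1516 and 1313 and then 1628 and 1606 CPM and was not called. Endoplasmic reticulum stress genes gave 6 higher, 1 lower and 10 uncalled genes of 17 (median 0.31), and 3 higher with library totals, 4 without sorted replicate 2 and 3 without whole replicate 2. Atf4, the translational stress factor, rose from 44.1 and 43.7 to 99.4 and 129.6 CPM (1.38 ± 0.13, adjusted p = 2.32e-05), and Dnajb9, a chaperone cofactor, from 27.1 and 32.1 to 74.3 and 63.3 (1.22 ± 0.14). The amino acid enzyme Asns, a target of Atf4, fell from 11.8 and 8.92 to 2.25 and 2.71 CPM (-2.06 ± 0.26, adjusted p = 0.000189). Of 12 p53 targets 2 were called higher and 1 lower (median -0.06), with Pmaip1, a trigger of apoptosis, at 2.75 ± 0.58, Trp53inp1 at 0.42 ± 0.13 and Sesn1 at -0.45 ± 0.13, and Cdkn1a, the cell cycle inhibitor, was at 113 and 125 and then 109.6 and 120.0 CPM. Not called without the library named, at the adjusted p given, were Hspa1a (sorted 2, 0.0803, or whole 1, 0.102), Dnaja1 (sorted 2, 0.153, or whole 2, 0.291), Cryab (whole 1, 0.0598, or whole 2, 0.0757), Pmaip1 (whole 2, 0.0826), Trp53inp1 (sorted 2, 0.139, or whole 1, 0.0966, or whole 2, 0.203) and Sesn1 (sorted 2, 0.126, or whole 1, 0.0877, or whole 2, 0.121).

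Interferon response genes gave 2 higher and 2 lower calls of 17 (median 0.18), a share of 23.5% against 22.1% of all genes tested. Ifi44 fell from 22.7 and 30.1 to 7.49 and 2.05 CPM (-2.47 ± 0.42, adjusted p = 0.0015), and the membrane protein Ifitm3 from 59.5 and 65.4 to 37.6 and 43 (-0.63 ± 0.16). The antiviral GTPases Mx1 and Mx2 were called higher at 2.74 ± 0.85 and 2.05 ± 0.57, but sorted replicate 2 was far above sorted replicate 1, at 1.02 and 4.62 CPM for Mx1 and 2.8 and 7.78 for Mx2 in sorted replicates 1 and 2, against 0.322 and 0.519 and 1.89 and 0.613 in whole tissue. The calls of Mx1 (sorted 2, 0.311, or whole 1, 0.185, or whole 2, 0.119), Mx2 (sorted 2, 0.165, or whole 2, 0.162) and Ifitm3 (sorted 1, 0.0541, or whole 2, 0.093) ended without the library in parentheses, at the adjusted p there. Rsad2, at 12.4 and 73 CPM, and Ifit1, at 0.945 and 19.3, were split the same way and were not called.

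**Figure D3:**
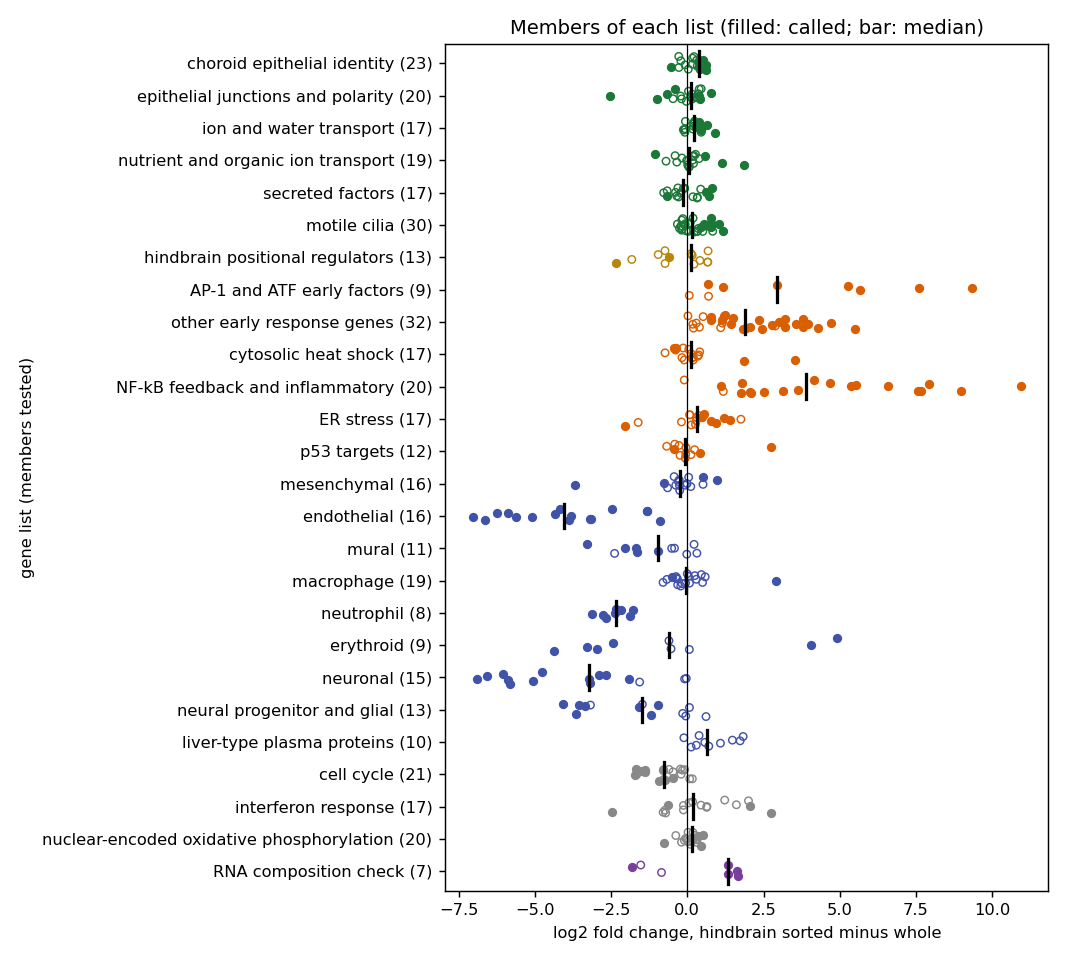
Log2 fold change, sorted minus whole hindbrain tissue (horizontal), of every tested member of 26 gene lists (rows, with the number tested), filled where called, with a black bar at each list's median. The AP-1, other early response and NF-kB lists lie to the right at medians of 2.93, 1.88 and 3.90, the endothelial, neutrophil and neuronal lists to the left at -4.03, -2.35 and -3.23, and the epithelial lists close to 0.

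Markers of cells outside the epithelium were lost to very different degrees. Endothelial markers were depleted without exception: all 16 were called lower, against 11.9% of all genes, with a median of -4.03. Pecam1, an adhesion protein of vessels, fell from 60.4 and 62.2 to 1.64 and 1.94 CPM (-5.09 ± 0.22, adjusted p = 2.73e-08) and Plvap, of fenestrated endothelium, from 24.1 and 30 to 1.56 and 1.43 (-4.17 ± 0.22). Cldn5, the endothelial claudin, had 153 and 106 counts in whole tissue and 0 and 2 in sorted cells, 154-fold lower (95% counting interval 42.2 to 1279.8). A few members were lost far less. Cdh5, the endothelial cadherin, kept 42.8 and 36.4 of 210.1 and 225 CPM (-2.46 ± 0.13), the receptor Kdr 74.4 and 82.3 of 188 and 199 (-1.31 ± 0.11), Emcn 34.2 and 31.1 of 77.1 and 86.4 (-1.32 ± 0.13) and Eng 41.9 and 30.2 of 59.7 and 74.1 (-0.89 ± 0.18). Cdh5, Kdr and Emcn were the most abundant members in whole tissue, and the summed list stood at 23.9% and 22.7% of whole tissue while the median member stood at 6.13%.

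Neuronal and progenitor markers were also depleted. Of 15 neuronal genes 12 were called lower and 0 higher (median -3.23). Snap25, a synaptic vesicle fusion protein, had 117 and 115 counts against 2 and 0, 138-fold lower (95% counting interval 37.8 to 1147). Stmn2 had 325 and 247 against 3 and 7 (-6.04 ± 0.54), and Dcx, of migrating neurons, fell from 35.5 and 29 to 3.56 and 3.3 CPM (-3.23 ± 0.19, adjusted p = 2.97e-07). Syt1, another vesicle protein, did not follow, at 27.9 and 31.7 and then 27.3 and 30.8 CPM (-0.03). Of 13 progenitor and glial genes 7 were called lower and 0 higher (median -1.47), with 4 lower without whole replicate 1 and 5 with DESeq2. The intermediate filament Nes fell from 30.1 and 33.8 to 3.2 and 3.08 CPM (-3.34 ± 0.22) and the fatty acid binding protein Fabp7 from 16.2 and 9.49 to 0.691 and 1.5 (-3.55 ± 0.45), while Hopx, at 27.1 and 23.2 and then 25.6 and 27.3 CPM, and Mbp, at 18.8 and 16 and then 15.4 and 15.9, were not called. The summed lists stood at 30.6% and 54.5% of whole tissue.

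Mesenchymal markers stayed near their whole-tissue level. Of 16 genes 2 were called higher and 2 lower, 25% against 22.1% of all genes tested, with a median of -0.25. The summed list stood at 112% and 93.2% of whole tissue in sorted replicates 1 and 2. Pdgfra, a receptor for platelet-derived growth factor on fibroblasts, was at 378 and 350.3 CPM in whole tissue and 399.9 and 388 in sorted cells, and the matrix proteoglycan Dcn at 148 and 140.2 and then 149 and 127. Neither was called, and the sorted and whole values of both were close. Postn, a matrix protein, rose from 156 and 191 to 392 and 297 CPM (0.99 ± 0.15, adjusted p = 0.000832), and Ogn from 307 and 407 to 502 and 528 (0.53 ± 0.15, adjusted p = 0.0277). The fibrillar collagen Col1a1 was at 180.4 and 246 and then 171 and 102 CPM (-0.65, adjusted p = 0.0567). Aldh1a2, a retinoic acid synthesising enzyme of meningeal mesenchyme, was the exception, falling from 26 and 20 to 2.47 and 1.1 CPM (-3.68 ± 0.34, adjusted p = 1.38e-05), and the forkhead factor Foxc1 also fell (-0.78 ± 0.22). Without sorted replicate 1, 7 members were called lower and 2 higher, with a median of -0.43, and with library totals 5 lower and 1 higher. Ogn (sorted 2, 0.0644, or whole 1, 0.215) and Foxc1 (sorted 2, 0.0853, or whole 2, 0.175) were not called without the library in parentheses, at the adjusted p there.

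Macrophage markers were likewise near their whole-tissue level. Of 19 genes 1 was called higher (Cd14) and 1 lower (C1qb), and the median was -0.06. DESeq2 called neither of them. The mannose receptor Mrc1 was at 56.3 and 58.4 CPM in whole tissue and 72.7 and 45.2 in sorted cells, the growth factor receptor Csf1r at 48.4 and 55.7 and then 47.4 and 42.3, and the chemokine receptor Cx3cr1 at 12.1 and 13.7 and then 15.5 and 5.21. For Mrc1 and Cx3cr1 the 2 sorted libraries lay on either side of whole tissue. The complement gene C1qb fell from 21.8 and 21.8 to 15 and 16.1 CPM (-0.49 ± 0.16, adjusted p = 0.0442), a call lost without any 1 of the 4 hindbrain libraries (adjusted p from 0.0514 to 0.176), and the call of Cd14 (2.90 ± 0.90) was lost without sorted replicate 2 (1.81, adjusted p = 0.181) and without either whole library.

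**Figure D4:**
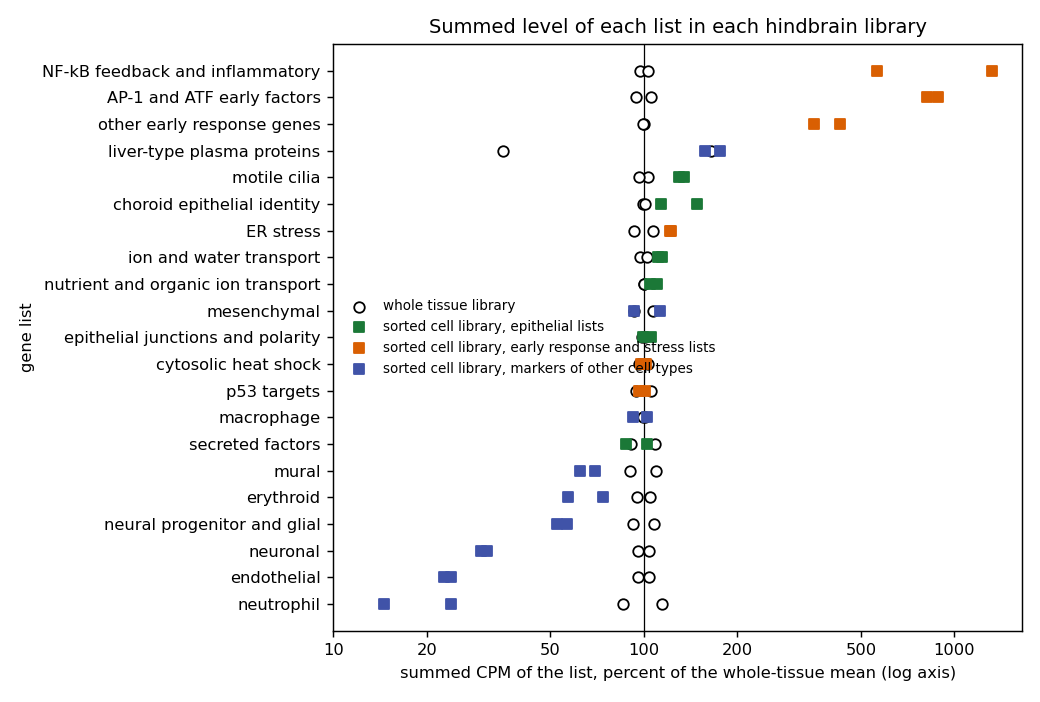
Summed CPM of each list in the 2 whole libraries (open circles) and 2 sorted libraries (squares) of hindbrain tissue, as a percent of the whole-tissue mean (log axis). Endothelial and neutrophil lists fall to between 14.6% and 23.9%, mesenchymal and macrophage lists stay at 92.3% to 112%, and the 3 early response and inflammatory lists rise to 353% or more.

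Markers of neutrophils and of vessel wall cells were lower in sorted cells. All 8 tested neutrophil genes were called lower (median -2.35), 4 without whole replicate 1, 6 without whole replicate 2 or sorted replicate 2, and 7 with DESeq2. Among them were Ngp, from 15.5 and 13.1 to 2.73 and 1.5 CPM (-2.76 ± 0.45, adjusted p = 0.00119), and the calcium-binding protein S100a9 (-2.37 ± 0.45), and Elane did not pass the filter. Of 11 mural genes 5 were called lower and 0 higher (median -0.95). The pericyte marker Rgs5 fell from 83.4 and 107 to 17.3 and 28.8 CPM (-2.05 ± 0.21), and the smooth muscle myosin Myh11 from 4.88 and 4.77 to 0.364 and 0.624 (-3.27 ± 0.45). Pdgfrb, the receptor of pericytes and fibroblasts, was at 85.8 and 90.1 and then 113 and 91.8 CPM and was not called. The summed mural list stood at 69.5% and 62.3%.

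Red cell transcripts split by type. Of 9 tested erythroid genes 4 were called lower and 2 higher. Alas2, the haem enzyme of red cells, fell from 43.2 and 37.1 to 8.55 and 6.2 CPM (-2.45 ± 0.21, adjusted p = 7.22e-06), and Spna1, the erythroid spectrin, had 119 and 81 counts against 2 and 9 (-4.38 ± 0.60). Beta-s, under which beta globin reads are listed, fell from 485 and 392 to 6.58 and 29.9 CPM (-4.59 ± 0.52). The embryonic globins went the other way: Hba-x was at 1.65 and 1.7 CPM in whole tissue and 35.2 and 21.1 in sorted cells (4.07 ± 0.34, adjusted p = 6.78e-06), and Hbb-y had 6 and 3 counts against 158 and 172 (4.91 ± 0.61, adjusted p = 0.000177). In both embryonic globins each sorted library lay far above each whole library. Globins are near-identical copies and their assignment to single genes is uncertain: Hba-a1, Hba-a2, Hbb-b1 and Hbb-b2 are listed at 0 in all 4 libraries. Of 10 liver-type plasma protein genes 0 were called in either direction by edgeR's test or by DESeq2, and 1 had an unadjusted p below 0.05. Of them Alb was at 0.363 and 20.1 and then 20.4 and 35.9 CPM, low in whole replicate 1 alone, and it was called higher without the low-count filter (adjusted p = 0.0126) and without whole replicate 2 (6.25, adjusted p = 2.35e-06). Without whole replicate 1 the summed list was 101% of whole tissue, and without whole replicate 2 it was 473%.

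Proliferation genes were lower in sorted cells, with 11 of 21 cell cycle genes called lower, 0 higher and a median of -0.77. Without whole replicate 1 or without whole replicate 2, 6 were called lower. Mki67 fell from 125 and 124 to 33.7 and 41.9 CPM (-1.72 ± 0.19, adjusted p = 7.12e-05), the topoisomerase Top2a from 72.5 and 61.9 to 19.1 and 28.1 (-1.51 ± 0.26) and cyclin A2, Ccna2, from 20 and 18.7 to 6.8 and 7.96 (-1.39 ± 0.26). Sorted and whole libraries did not overlap in 16 of the 21 genes. The share of all genes without overlap was not counted, so that number has no background to be read against. Cdk1, at 21.7 and 21.8 and then 15.8 and 30.3 CPM, Tyms and Cdc20 were not called. The endothelial and progenitor markers given above moved in the same direction, and their part in the cell cycle genes was not tested. Of 20 nuclear-encoded genes of oxidative phosphorylation 3 were called higher and 1 lower (median 0.14), with Ndufb9 at -0.78 ± 0.15 and Cox6c at 0.50 ± 0.14. That share, 20%, was near the 22.1% of all genes tested. Cox6c, Atp5j and Uqcrc2 were the higher calls, and all 3 ended without whole replicate 1 or without whole replicate 2, at an adjusted p for Cox6c of 0.0743 and 0.12, for Atp5j of 0.0955 and 0.173 and for Uqcrc2 of 0.138 and 0.189. Without sorted replicate 2 or any single telencephalic library, and with the 4 hindbrain libraries fitted alone, 1 gene was called higher, and with library totals 0 were called higher and 2 lower, with a median of -0.06.

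Of the 6 largest gains in CPM, Ttr and Enpp2 are given above, and Rn45s and Malat1 are non-coding. Rn45s rose from 36004 and 37114 to 63015 and 121310 CPM (1.33 ± 0.22, adjusted p = 0.00131), and its level in sorted replicate 2 stood far above that in sorted replicate 1. Malat1, a nuclear long non-coding RNA, rose from 3802 and 3309 to 10585 and 11573 CPM (1.64 ± 0.13, adjusted p = 5.23e-06), and Neat1, the RNA of nuclear paraspeckles, from 14.7 and 12.8 to 33.7 and 52.9 (1.65 ± 0.22). Meg3 and Rian, neighbouring imprinted non-coding RNAs, rose from 107 and 137 to 320.0 and 288 (1.32 ± 0.16) and from 68.3 and 74.6 to 320.5 and 293 CPM (2.10 ± 0.15). Another imprinted RNA, H19, fell from 407 and 536 to 76.4 and 71.2 CPM (-2.68 ± 0.17, adjusted p = 4.31e-07). Lars2, a mitochondrial tRNA ligase, rose from 2869 and 2987 to 5931 and 6975 CPM (1.14 ± 0.14). Gm20594 was called higher (1.72 ± 0.41), but was at 1004 and 2893 CPM in the 2 sorted libraries and lost its call without sorted replicate 2 (0.76, adjusted p = 0.0977) and without whole replicate 2 (adjusted p = 0.0764). Among abundant genes the glycolytic enzyme Ldha fell from 1174 and 1107 to 567 and 716 CPM (-0.83 ± 0.15) and spectrin beta, Spnb2, from 1259 and 1303 to 945 and 865 (-0.50 ± 0.11).

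Outside the lists lay most of the large changes: 131 of the 172 genes at least 4-fold higher and 450 of the 495 at least 4-fold lower. By a rule on fold change with at least 20 CPM in the higher group, the largest gain was Gje1, a connexin-like gap junction gene, from 0.484 and 0.661 to 30.6 and 31.8 CPM (5.77 ± 0.30, adjusted p = 9.95e-08). Ly6e, a membrane-anchored protein, rose from 108 and 125 to 1093 and 1446 CPM (3.44 ± 0.15, adjusted p = 3.02e-08), and Lynx1, of the same protein family, from 6.77 and 7.74 to 80.4 and 111 (3.72 ± 0.17). In all 3 genes both sorted libraries lay far above both whole libraries. Atp10d, a phospholipid flippase, rose from 35.1 and 30.4 to 183 and 195 CPM (2.52 ± 0.14), and Efhc2, an EF-hand protein, from 8.1 and 8.02 to 31.9 and 35.7 (2.07 ± 0.17). Ccrl2 and Cd83, known from activated immune cells, rose by 5.20 ± 0.62 and 3.46 ± 0.41, and Nab1, a co-repressor of Egr factors, by 2.28 ± 0.17. The largest losses by the same rule were Esm1, from 52.4 and 68.2 to 0.327 and 0.587 CPM (-7.03 ± 0.25), Sox18, from 23.9 and 20.4 to 0.145 and 0.22 (-6.88 ± 0.30), Slco2a1 (-6.48 ± 0.29) and Cd34 (-5.91 ± 0.39). Aplnr, Ptprb and Col15a1, like Esm1, Sox18 and Cd34 known from blood vessels, fell with log2 changes of -5.39 ± 0.45, -5.74 ± 0.30 and -5.34 ± 0.28.

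The same sort was made from the telencephalic plexus, in libraries that share no sample with the hindbrain ones but come from the same brains. There 9.88% of genes were called higher and 12.5% lower. Of the hindbrain calls 923 of the higher genes were also higher in telencephalic cells, 57.4% of the hindbrain and 59.5% of the telencephalic calls, and 1145 of the lower genes were lower in both, 61.4% and 58.2%. Opposite calls were few: 8 genes were higher in hindbrain and lower in telencephalic cells, and 10 the reverse. In telencephalic cells 6 of 9 AP-1 and ATF factors and 12 of 20 NF-kB genes were called higher and none lower, against 7 and 18 called higher in the hindbrain, and of the 32 other early response genes 20 were called higher and 2, Myc and Rhob, lower. Fos changed by 7.61 ± 0.23 in the hindbrain and 7.75 ± 0.26 in the telencephalic plexus, and Egr1 by 5.50 ± 0.19 and 4.60 ± 0.18. For 4 of the 32 other early genes, Ier5, Klf6, Rhob and Zfp36, the difference itself was called, each with the more positive effect in the hindbrain. The test of the difference between the 2 sort effects called 1.34% of genes (211), 173 of them with the more positive effect in the hindbrain, and 337 genes with the shared brain as a block.

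Markers of other cells differed between the 2 regions. Of the 19 macrophage markers 16 were called lower in telencephalic sorted cells (median -1.85) and 1 in hindbrain cells, and for 6 the difference itself was called. C1qb changed by -0.49 ± 0.16 in the hindbrain and -2.45 ± 0.19 in the telencephalic plexus, a difference of 1.97 ± 0.24 (adjusted p = 0.00216). Mesenchymal markers had 11 of 16 lower in telencephalic cells (median -0.88) against 2 in hindbrain cells, with 3 differences called. Pericyte genes were lost more fully from telencephalic cells: Rgs5 changed by -5.33 ± 0.27 against -2.05 ± 0.21 in the hindbrain (difference 3.28 ± 0.34, adjusted p = 0.00101) and Kcnj8 by -4.76 ± 0.36 against -1.69 ± 0.26 (difference 3.07 ± 0.45). Cdh5 changed by -4.07 ± 0.15 against -2.46 ± 0.13 (difference 1.61 ± 0.18, adjusted p = 0.00179). Of the 8 neutrophil genes tested, all called lower in the hindbrain, 4 were called higher in telencephalic cells, where their summed level was 611% and 204% of whole tissue in sorted replicates 1 and 2. Ngp was at -2.76 ± 0.45 in the hindbrain and 2.15 ± 0.64 in the telencephalic plexus (difference -4.91 ± 0.77, adjusted p = 0.0074), and 5 of the 8 members were called for the difference. The difference for Ngp was not called without telencephalic whole replicate 1 (adjusted p = 0.0664) or 2 (0.0714). Without telencephalic sorted replicate 1 the differences of S100a9 (adjusted p = 0.0571), Lcn2 (0.0659) and Mpo (0.188) were not called, and single telencephalic whole libraries also ended each of these calls. The 10 liver-type genes had 8 called higher in telencephalic cells (median 5.69) and 0 in the hindbrain (median 0.64), but the difference itself was called for 0 of them. Of the 23 identity genes 13 were called higher in telencephalic cells, with a median of 0.43, against 10 and 0.38 in the hindbrain.

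**Figure D5:**
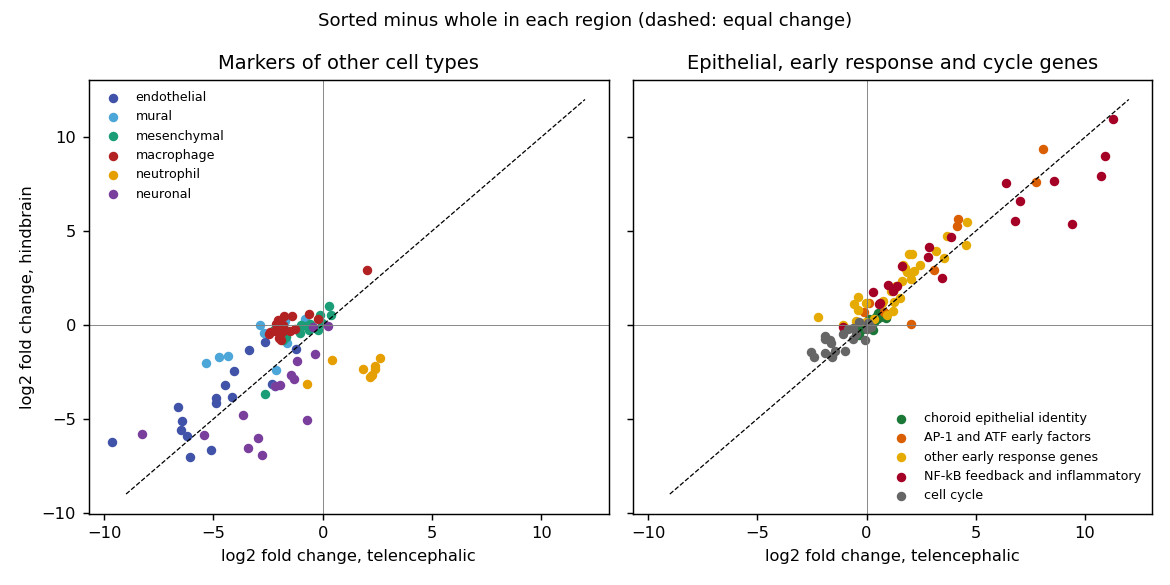
Log2 fold change, sorted minus whole, in the hindbrain (vertical) against the telencephalic plexus (horizontal), 1 point per tested list member, for markers of other cells (left) and epithelial, early response and cell cycle genes (right), with a dashed line at equal change. Most macrophage and mural markers lie above the line on the left, most neutrophil markers lie at lower right, and most early response and NF-kB genes lie at upper right, where both changes are positive.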

How the data were processed

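Whole-number read counts per gene, not normalized, were deposited by the authors in 1 table of 8 columns, each matched by name to 1 sample. Per the labels, RNA was pre-amplified with the NuGEN Ovation V2 system and made into paired-end TruSeq v2 libraries. The submitters' processing notes list the build mm9 and, with no order or role, TopHat2 2.0.4, DESeq 1, HTSeq, CASAVA 1.8.2 and Bowtie2 2.0.5. No source here names the annotation or the strand setting, so overlapping genes cannot be told apart, and no mm9 gene coordinates are printed. Promoters are from RefSeq, GRCm38.p6.

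Genes kept by filterByExpr (minimum count 10, minimum total 15) were fitted in edgeR 4.0.16 (R 4.3.3) with TMM scaling and 4 group means over all 8 libraries, 2 per group, so that the spread was estimated across all groups. The quasi-likelihood test was applied to sorted minus whole, per region, and to the difference of those contrasts, with Benjamini-Hochberg adjustment over all 15698 genes tested. The test was also run on simulated data with 200 changed genes and the same spread in every group. That check does not cover the wider spread between the 2 sorted hindbrain libraries or the larger number of genes called here. Fold changes are on the log2 scale with the fitted SE after the ± sign. The series' design calls the 2 libraries of a group biological replicates, and p-values measure only the spread between such libraries. Of 444 genes in 26 lists, 443 were in the table (Ahsp was not), 9 under an older name, and 428 were tested. Members and lists were chosen with earlier results of these data known. Named genes are, per list, up to 4 called members by adjusted p (or, with fewer than 2 called, the 2 most abundant), outside the lists the 10 largest fold changes per direction (at least 20 CPM in the higher group, no overlap of the groups, predicted genes left out), the 6 largest CPM differences per direction, the 4 largest called differences between regions per direction with the same filters, and Ttr and Rn45s. Others were named after their values were seen. Alternatives were other scalings (RLE factors, library totals), filters, DESeq2 1.42.0, a test against 1.5-fold, a replicate block and leaving out each library. Telencephalic and hindbrain libraries of the same number come from the same brains per the design text, and their deviations from the group means correlated at 0.19 in whole tissue and 0.14 in sorted cells.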

Additional observations from a re-analysis of the deposited data

Results flagged for a closer look

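The test of the difference between regions called 211 genes, and the 17 given here are those among the named genes. Some of the 17 were named because their difference was among the largest. Values are log2, hindbrain minus telencephalic. Genes that were lower in sorted cells of both regions, and less so in the hindbrain, were Rgs5 (3.28 ± 0.34, adjusted p = 0.00101), Kcnj8 (3.07 ± 0.45), Sparcl1 (2.86 ± 0.34), Igfbp3 (2.55 ± 0.43), Robo4 (2.26 ± 0.43), C1qb (1.97 ± 0.24), Cdh5 (1.61 ± 0.18) and Abcg2 (1.26 ± 0.27, adjusted p = 0.042). The neutrophil genes Mpo (-4.94 ± 0.92, adjusted p = 0.0196), Ngp (-4.91 ± 0.77), S100a9 (-4.76 ± 0.77) and Lcn2 (-4.18 ± 0.68) fell in the hindbrain, while in the telencephalic plexus Ngp, S100a9 and Lcn2 rose and Mpo, at 2.27 ± 0.81, was not called. Reln (-3.22 ± 0.42, adjusted p = 0.00241), an extracellular guide of neuron position, fell from 35.9 and 23.8 to 1.53 and 2.35 CPM in the hindbrain and was at 5.32 and 8.07 and then 4.35 and 3.53 CPM in the telencephalic plexus, where it was not called. Ranbp3l (-1.87 ± 0.41, adjusted p = 0.0439) fell in the hindbrain (-2.45) and was not called in the telencephalic plexus (-0.58). Wdr72 (-1.95 ± 0.23, adjusted p = 0.00179) and Lynx1 (-1.68 ± 0.28) rose in both regions and less in the hindbrain. Zfp36 (1.54 ± 0.27, adjusted p = 0.0116), an early response gene, rose more in the hindbrain. No group had the 4 samples needed to look for a single outlying library.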

How the results depend on the processing

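The 3472 hindbrain calls became 2236 with the 4 hindbrain libraries fitted alone, 954 against a 1.5-fold threshold, and 1691 to 3875 with 1 library left out, where a lone library is assumed to vary like the other groups. The 3517 telencephalic calls became 1034 against 1.5-fold and 1519 to 4501 with 1 library left out. The 211 differences between regions became 441 without a filter, 92 against 1.5-fold, 335 with DESeq2 and 58 to 473 with 1 library left out (473 without hindbrain sorted replicate 2, 58 without telencephalic whole replicate 2). Members called in the lists fell from 187 to 107 against 1.5-fold. Whole and sorted libraries of the same number are not paired by the design (correlation of deviations -0.06), and a replicate block over all libraries gave 3483 calls and 207 differences, while the block by brain, added after seeing the data, gave 337 differences. Under that plain block Ttr (adjusted p = 0.101), Dnaja1 (0.0532), C1qb (0.0505) and Uqcrc2 (0.0527) lost their calls.

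Summed levels as a percent of whole tissue moved with library totals to 20.3 (endothelial), 57.7 (mural), 85.0 (macrophage), 26.7 (neuronal), 47.6 (progenitor and glial) and 145.6 (liver-type). The median of the members' own ratios gave 84 (mesenchymal), 6.13 (endothelial), 53.2 (erythroid), 10.6 (neuronal), 35.5 (progenitor and glial) and 153 (liver-type). Leaving out 1 library gave 22.4 to 24.3 (endothelial), 60.2 to 72.8 (mural), 29.4 to 32 (neuronal), 50.4 to 59.2 (progenitor and glial) and 101 to 473 (liver-type). Apob, not called (0.13), changed sign with library totals (-0.051) and without sorted replicate 1 (-0.37) or whole replicate 1 (-0.19), with a range of -0.37 to 0.51 over the single libraries left out. Of the fold changes of named genes under alternatives, 2047 kept direction and call, 189 lost the call, 2 gained it and 3 changed sign, and the cause was not tested. Of called epithelial genes named here, library totals ended the calls of Ttr (0.19), Enpp2 (0.24), Htr2c (0.24), Tmem72 (0.32), F5 (0.41), Krt18 (0.41), Kcnj13 (0.46), Car2 (0.24), Slc12a4 (0.20), Kl (0.18), Car12 (0.21), Ocln (0.17), Foxj1 (0.33) and Rfx3 (0.24). The calls of the early response genes Fos, Fosb, Jun, Junb, Egr1, Cyr61, Dusp1 and Zfp36 held under every alternative run, as did those of Pecam1, Plvap, Cdh5 and Robo4. Of the differences between regions named here, Ranbp3l (adjusted p = 0.0501 with library totals and 0.0575 with the replicate block) and Abcg2 (0.0546 with the block) lost their calls, Igfbp3, Lcn2, Lynx1, Mpo, Ngp, Robo4, S100a9 and Zfp36 lost theirs with a single library left out or against 1.5-fold, and those of Wdr72, Sparcl1, Reln, Cdh5, C1qb, Kcnj8 and Rgs5 held in every alternative run. At this depth a gene under about 1 CPM rests on few reads in each library.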
